A study of Mus musculus with 8 samples.

Results

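ATP-sensitive potassium (KATP) channels are described here in mouse hearts through the 4 genes that encode their subunits: the pore proteins Kcnj8 (Kir6.1) and Kcnj11 (Kir6.2) and the sulphonylurea receptors Abcc8 (SUR1) and Abcc9 (SUR2). The genes were taken by name, and every probe whose RefSeq accession maps to one of them was used. This gave 6 probes, 1 each for Kcnj8 and Abcc9 and 2 each for Kcnj11 and Abcc8, out of 39429 probes for 32594 genes and unnamed features on the array. All 6 probes were well above background on all 8 arrays, and all 4 genes passed the filter on dim probes.

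The RNA came from hearts of male C57BL6 mice, 4 samples labelled control and 4 labelled dtg (double transgenic), each measured on its own 1-colour array. The controls were Cre-positive and had no floxed IGF-1R, the receptor for insulin-like growth factor 1. The dtg genotype was merCremer/+ IGFloxP/IGFloxP, which joins a tamoxifen-dependent Cre to floxed receptor alleles, and the labels do not give the promoter that drives this Cre. Both genotypes were given 4OH-Tamoxifen (500 µg a day for 10 days) at an age of 8 months, a treatment intended to cut exon 3 out of the receptor gene, and hearts were taken 6 weeks later. Nothing in the labels states that the samples of a group are separate animals, so each p-value reflects sample-to-sample spread that could in part be technical. The study asked how the heart changes after receptor loss in ageing mice; here the question is whether the KATP subunits differed between the groups, between slides and between single hearts.

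A KATP channel is built from pore subunits of the Kir6 family surrounded by sulphonylurea receptors, which are members of the ABCC family of ATP-binding cassette proteins. ATP closes the pore, and ADP bound with magnesium at the receptor favours opening, so the channel links membrane potential to the energy state of the cell. In mouse ventricular muscle the sarcolemmal channel is mainly Kir6.2 with SUR2A, in mouse atria SUR1 contributes, and in vascular smooth muscle and pericytes Kir6.1 pairs with SUR2B. SUR2A and SUR2B are splice forms of Abcc9 that differ in the last exon, and pancreatic beta cells use Kir6.2 with SUR1.

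The arrays lay on 2 slides with 2 control and 2 dtg samples each: control 1, control 2, dtg 1 and dtg 4 on slide 1, and control 3, control 4, dtg 2 and dtg 3 on slide 2. Values are log2 signal relative to the array's 75th percentile, which lay between 737.6 and 1027 intensity units and was lowest on control 4 (737.6) and dtg 4 (754.6). Between 59.1% and 71.5% of probes were well above background per array, and no spot was saturated. The number of arrays limits the precision. Igf1r, the targeted gene, read 0.18, 0.21, 0.38 and 1.04 in controls 1 to 4 and -0.30, -0.21, 0.17 and 0.40 in dtg 1 to 4. Its groups overlapped, with a difference of -0.43 (SE 0.24, adjusted p = 1 with limma), and whether its probe lies in the excised exon is not known here.

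The 2 genes of each receptor and pore pair are neighbours in the genome. In the RefSeq gene order of assembly GRCm38.p6, Kcnj8 and Abcc9 are adjacent protein-coding genes on chromosome 6, and Kcnj11 and Abcc8 are adjacent on chromosome 7. The RefSeq promoter table held Kcnj8 and Abcc9. Their windows, from 250 bases before to 50 bases after the annotated start, are shown because these neighbours encode the vascular channel and yet their signals ranked the 8 hearts differently. Both genes are on the minus strand, Kcnj8 at chr6:142571565-142571864 and Abcc9 at chr6:142702225-142702524 (GRCm38.p6), and each is written 5′ to 3′ on its own strand. Capitals mark CACCC on either strand (GGGTG where it lies on the other strand), a short motif bound by Krüppel-like and Sp factors.
Kcnj8: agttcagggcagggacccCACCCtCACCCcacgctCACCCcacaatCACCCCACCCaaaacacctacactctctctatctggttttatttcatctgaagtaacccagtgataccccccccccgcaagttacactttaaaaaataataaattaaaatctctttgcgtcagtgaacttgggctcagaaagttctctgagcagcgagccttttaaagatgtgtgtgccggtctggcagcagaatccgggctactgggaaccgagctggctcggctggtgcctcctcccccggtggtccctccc
Abcc9: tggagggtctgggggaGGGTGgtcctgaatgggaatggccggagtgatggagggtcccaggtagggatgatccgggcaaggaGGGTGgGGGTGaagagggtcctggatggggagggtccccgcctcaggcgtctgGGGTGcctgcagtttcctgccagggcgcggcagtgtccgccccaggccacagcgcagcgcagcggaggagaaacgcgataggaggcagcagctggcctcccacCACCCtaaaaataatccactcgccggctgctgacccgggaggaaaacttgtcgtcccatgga

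CACCC occurred 5 times in each window, all on the gene's own strand in Kcnj8 and 4 of 5 times on the other strand in Abcc9. It occurred at least once in 57.5% and at least 5 times in 1.02% of the 32851 promoters of this length. No match of one motif overlapped a match of another. CANNTG, the E-box, occurred at 1 position in each (72.3% of promoters), and GGGCGG at 1 position in Abcc9 and at none in Kcnj8 (35.7%). TATAAA (13.6% of promoters), GTAAACA (3.65%), ACGTG (19.6%) and AGATAA (11.2%) were in neither window. GC content was 53.3% for Kcnj8 and 65.7% for Abcc9, against a median of 52.7%. The motifs were searched on both strands and were chosen after these sequences had been read, so the matches describe the letters and nothing more.

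None of the 4 subunit genes passed the test between dtg and control hearts. The adjusted p was 1 for each (limma, Benjamini-Hochberg over 21427 features), where 0 of 21427 features passed (0% of those tested). At an unadjusted p under 0.05, 160 features lay (0.747%), 132 of them higher in dtg hearts (0.616%), and no KATP subunit was among them. The split of 132 higher and 28 lower became 97 and 98 with quantile scaling, 96 and 98 with the authors' values and 383 and 397 with array weights. Groups did not overlap for 0.518% of features and for none of the 4 genes. The nearest was Abcc9, 1.18-fold higher in dtg hearts.

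Kcnj11 encodes the pore of the ventricular channel. Its brighter probe (A_52_P402705) read 1.17, 1.03, 0.84 and 1.01 in controls 1 to 4 and 1.17, 0.78, 1.17 and 0.77 in dtg 1 to 4. The groups overlapped over most of their range, with dtg 2 and dtg 4 the lowest hearts and control 1, dtg 1 and dtg 3 the highest. The means were 1.01 ± 0.13 (SD, n = 4) in the controls and 0.97 ± 0.23 (SD, n = 4) in the dtg hearts, with a difference of -0.043 (SE 0.14, 95% interval -0.37 to 0.28, adjusted p = 1 with limma). Slide 1 alone gave -0.13 and slide 2 alone 0.044, and the sign also turned without control 1 (0.0073), dtg 2 (0.022) or dtg 4 (0.024).

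The dimmer Kcnj11 probe (A_55_P1961477) read -1.73, -1.66, -1.78 and -3.00 in controls 1 to 4 and -1.59, -1.78, -1.91 and -3.31 in dtg 1 to 4. It was low in control 4 and dtg 4 and within a narrow band in the other 6 hearts. In processed signal this was 85.3 and 71.0 intensity units in those hearts, against 211.9 to 280.7 in the others. The raw pixel medians of 167 and 147 there still lay above local backgrounds of 29 to 38.5 over the arrays. The groups overlapped (difference -0.10, SE 0.44, 95% interval -1.12 to 0.91), and the differences were -0.76 within slide 1, which holds dtg 4, and 0.55 within slide 2, which holds control 4.

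The gap between the brighter and the dimmer Kcnj11 probe was 2.89, 2.70, 2.62 and 4.01 in controls 1 to 4 and 2.76, 2.55, 3.07 and 4.08 in dtg 1 to 4. The probes therefore gave different orders of the hearts: the brighter one placed control 4 in the middle, and the dimmer one placed it next to last. The gap ranged over 1.53 log2 units across the 8 hearts, and 81.9% of 3726 genes with 2 probes had a smaller range (median 0.85). For Abcc8 the gap between probes lay between 0.035 and 0.33, a range of 0.29, and 5.9% of those genes had a smaller one. Control 4 and dtg 4 were also the arrays with the lowest 75th percentile of signal, and their part in the dim Kcnj11 readings was not tested.

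**Figure D1:**
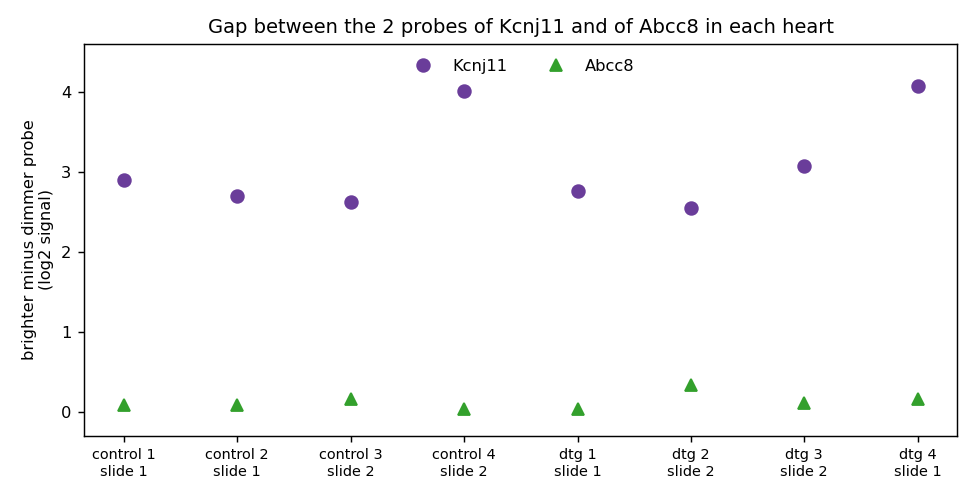
Gap between the brighter and the dimmer probe of Kcnj11 (circles) and of Abcc8 (triangles) in each of the 8 hearts, in log2 signal, with the slide given under each heart. The Kcnj11 gap was 4.01 in control 4 and 4.08 in dtg 4 and between 2.55 and 3.07 elsewhere, while the Abcc8 gap stayed between 0.035 and 0.33.

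Kcnj8 encodes the pore of the vascular channel. It read 0.64, 0.62, 0.74 and 0.76 in controls 1 to 4 and 0.59, 0.83, 0.87 and 0.51 in dtg 1 to 4 (probe A_52_P225898). The dtg hearts held both the 2 highest and the 2 lowest values, with all controls between them. The means were 0.69 ± 0.07 (SD, n = 4) in the controls and 0.70 ± 0.18 (SD, n = 4) in the dtg hearts, with a difference of 0.0057 (SE 0.12, 95% interval -0.26 to 0.28, adjusted p = 1 with limma). The difference was -0.086 within slide 1 and 0.097 within slide 2. Its sign turned without control 1 (-0.011), control 2 (-0.018), dtg 2 (-0.039) or dtg 3 (-0.051), and with median scaling (-0.074).

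The Kcnj8 values separated by slide. All 4 hearts of slide 2 (0.80 ± 0.06, SD, n = 4) lay above all 4 hearts of slide 1 (0.59 ± 0.06, SD, n = 4), and 81.1% of its variance lay between the slides against 0.0581% between the groups. The slide difference was 0.21, or 1.16-fold (SE 0.094, 95% interval -0.0069 to 0.43), and did not pass the test (adjusted p = 0.254 with limma). At an unadjusted p under 0.05 lay 21.1% of features, and Kcnj8 was not among them, but was with an intensity trend, array weights or median scaling (adjusted p from 0.0607 over all alternatives, limma). Across the array, 17.5% of features had slides that did not overlap and 3.52% had slide 2 entirely above slide 1. At the adjusted threshold 10.2% of features passed between slides, 64 higher and 2122 lower on slide 2 (2.93% of calls higher), a split that became 339 and 1166 (22.5% higher) with median scaling. Median scaling moved the median slide difference of all features from -0.019 to 0.27 and that of Kcnj8 to 0.50, while normexp as planned gave 0.076 with overlapping slides.

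Kcnj11, Abcc8 and Abcc9 overlapped between the slides. Their slide differences were -0.084, 0.11 and -0.089, with adjusted p of 0.83, 0.761 and 0.76 (limma), and median scaling turned the sign of Kcnj11 (0.21) and Abcc9 (0.20). A term for slide by group did not pass for Kcnj8, Kcnj11, Abcc8 or Abcc9 (adjusted p = 0.813, 0.87, 0.801 and 0.952 with limma), where 1 feature passed over the array (0.00467%). None of the 4 had an unadjusted p under 0.05 for that term, against 4.57% of features. By the probes that stood for them, the 4 genes were among the steadier features. Of all features, dim ones included, 87.7% had a larger SD over the 8 hearts than Kcnj8. The share was 71.6% for Kcnj11, 70.6% for Abcc8 and 71.6% for Abcc9. The dimmer probes had an SD of 0.66 for Kcnj11 and 0.22 for Abcc8, against a median of 0.25 over all features. The part of signal level in these shares was not tested.

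Abcc8 encodes SUR1, the receptor known from beta cells and mouse atria. Its brighter probe (A_55_P1979814) read 3.30, 3.19, 3.29 and 3.78 in controls 1 to 4 and 3.48, 3.42, 3.32 and 3.39 in dtg 1 to 4. Control 4 was the highest heart, and the other 3 controls were the lowest hearts, so that the dtg values fell in between. The means were 3.39 ± 0.26 (SD, n = 4) in the controls and 3.40 ± 0.07 (SD, n = 4) in the dtg hearts, with a difference of 0.016 (SE 0.14, 95% interval -0.31 to 0.35, adjusted p = 1 with limma). Slide 1 alone gave 0.19 and slide 2 alone -0.16.

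The Abcc8 difference depended on control 4. Without control 4 the difference was 0.14, short of the adjusted threshold. Without control 1, control 2, control 3 or dtg 1 its sign turned (-0.014, -0.050, -0.017 and -0.011), as it did with median scaling (-0.064). The dimmer Abcc8 probe (A_55_P2178207) read 3.21, 3.11, 3.13 and 3.74 in controls and 3.45, 3.09, 3.21 and 3.23 in dtg hearts. It too was highest in control 4, and its difference was -0.050 (SE 0.17, 95% interval -0.43 to 0.33).

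Abcc9 encodes SUR2, the receptor of ventricular muscle (SUR2A) and of vascular smooth muscle (SUR2B). It read 3.18, 3.35, 3.23 and 3.17 in controls 1 to 4 and 3.38, 3.35, 3.49 and 3.70 in dtg 1 to 4 (probe A_66_P101519). Of the 4 dtg hearts, 3 lay above every control, 4 lay above the control mean, and the groups met only where dtg 2 fell just under control 2. Of the 4 genes it had the largest share of variance between groups, 55.9%, where the median feature had 2.88%.

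The Abcc9 means were 3.24 ± 0.08 (SD, n = 4) in the controls and 3.48 ± 0.16 (SD, n = 4) in the dtg hearts. The difference of 0.24 (SE 0.11, 95% interval -0.016 to 0.50) was 1.18-fold (0.989 to 1.42), with an unadjusted p of 0.0621 and an adjusted p of 1 (limma). Slide 1 alone gave 0.27 and slide 2 alone 0.22, and leaving out any sample in turn gave 0.17 (without dtg 4) to 0.29 (without dtg 2). Which part of the Abcc9 transcript the probe reads, and so which receptor form, is not known here. With an intensity trend in the limma fit the unadjusted p was 0.0369 and the difference the same. With normexp as planned the difference was 0.47 (SE 0.41), with array weights 0.15, without control 4 and dtg 4 together 0.15. It was 0.12 with slide as a block and control 4, dtg 3 and dtg 4 left out.

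**Figure D2:**
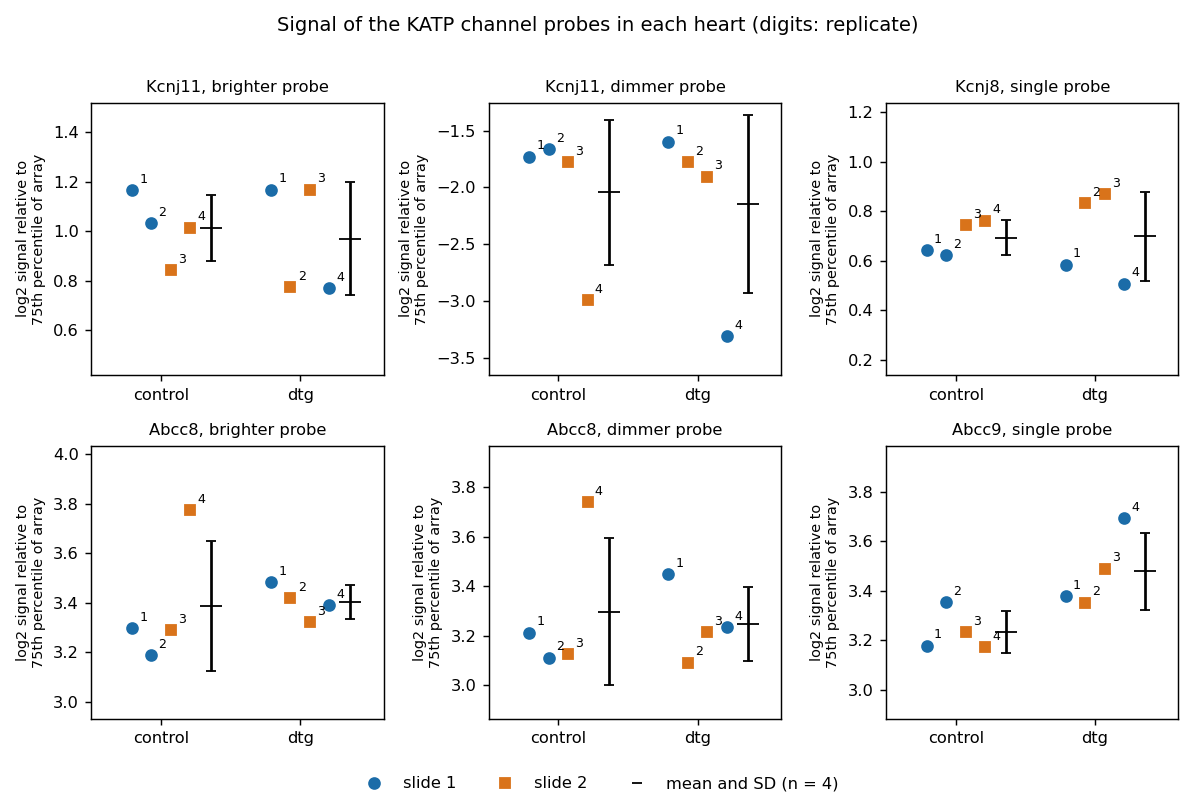
Log2 signal of the 6 KATP channel probes relative to the array's 75th percentile, by group, with 1 point per heart (digits give the replicate, colour and shape the slide) and the mean and SD of each group (n = 4) beside them. Kcnj8 was higher in the slide 2 hearts in both groups, Kcnj11's dimmer probe was low in control 4 and dtg 4, and 3 dtg hearts lay above all controls for Abcc9.

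**Figure D3:**
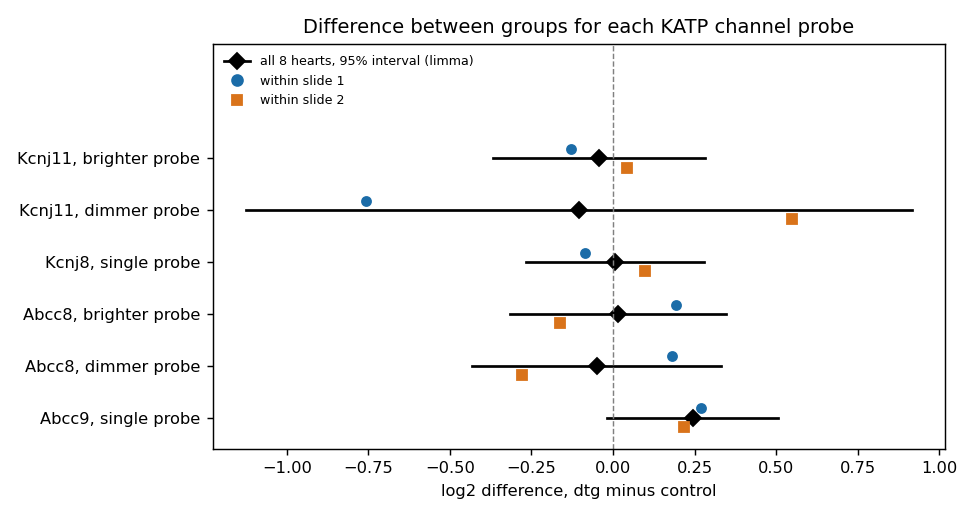
Difference between dtg and control hearts in log2 signal for each KATP channel probe, with the limma estimate over all 8 hearts and its 95% interval (diamonds and lines) and the value within each slide (circles and squares). All intervals include 0, and Abcc9 was the probe whose estimate and within-slide values of 0.27 and 0.22 lay furthest above it.

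Ratios between subunits within a heart were compared next, since a ratio on the same array does not depend on the scaling of that array. For Kcnj11 over Kcnj8, the cardiac against the vascular pore, the log2 ratio was 0.52, 0.41, 0.098 and 0.25 in controls and 0.58, -0.057, 0.30 and 0.26 in dtg hearts. These groups overlapped, with a difference of -0.049 (two-sided exact permutation p = 0.8, adjusted p = 0.943 over the 6 pairs). The log2 ratio averaged 0.44 on slide 1 and 0.15 on slide 2, with overlap.

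Abcc8 over Abcc9, the ratio of the receptors, was 0.12, -0.16, 0.057 and 0.60 in controls and 0.11, 0.067, -0.17 and -0.31 in dtg hearts. The highest value was that of control 4 and the lowest that of dtg 4. The difference was -0.23 (exact permutation p = 0.257, adjusted p = 0.514), -0.077 within slide 1 and -0.38 within slide 2. Without control 4 it was -0.079, and with slide as a block and control 4, dtg 3 and dtg 4 left out it turned to 0.078.

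Abcc9 over Kcnj11, the pair of the ventricular channel, was 2.01, 2.32, 2.39 and 2.16 in controls and 2.21, 2.58, 2.32 and 2.93 in dtg hearts. Its difference of 0.29 did not pass (exact permutation p = 0.171, adjusted p = 0.514) and was 0.40 within slide 1 and 0.17 within slide 2. Abcc9 over Kcnj8, the pair of the vascular channel, differed by 0.24 (exact permutation p = 0.2, adjusted p = 0.514), with 0.36 and 0.12 within the slides. Without dtg 4 these differences were 0.15 for Abcc9 over Kcnj11 and 0.10 for Abcc9 over Kcnj8. Abcc8 over Kcnj11 differed by 0.059 (exact permutation p = 0.714, adjusted p = 0.943) and Abcc8 over Kcnj8 by 0.010 (exact permutation p = 0.943, adjusted p = 0.943). All 6 ratios overlapped between groups, and the smallest p that 70 assignments allow is 0.0286. At that p, 1 ratio alone could not pass the adjusted threshold over the 6 pairs.

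No relation between 2 subunits across the hearts passed the test. Over the 8 hearts Kcnj8 and Abcc9 had a Pearson's r of -0.336 (exact permutation p = 0.42, adjusted p = 0.955 over 10 relations) and a Spearman's rho of -0.333 (exact permutation p = 0.428, adjusted p = 1). Without control 4 and dtg 4, the hearts furthest from the median of Abcc9, r was 0.416. Kcnj11 and Abcc8 had an r of -0.0107 (exact permutation p = 0.985, adjusted p = 0.985) and a rho of 0 (exact permutation p = 1, adjusted p = 1), and r was -0.0522 without control 2 and control 4.

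Kcnj8 with Kcnj11 gave r = 0.035 (exact permutation p = 0.939, adjusted p = 0.985) and rho = 0.0714 (exact permutation p = 0.882, adjusted p = 1), and r = -0.152 without dtg 2 and dtg 4. Kcnj8 with Abcc8 gave r = 0.144 (exact permutation p = 0.76, adjusted p = 0.985) and rho = 0.0952 (exact permutation p = 0.84, adjusted p = 1), and r = -0.325 without control 2 and control 4. Kcnj11 with Abcc9 gave r = -0.299 (exact permutation p = 0.485, adjusted p = 0.955) and rho = 0.0238 (exact permutation p = 0.977, adjusted p = 1), and r = 0.211 without control 4 and dtg 4. Abcc8 with Abcc9 gave r = -0.223 (exact permutation p = 0.573, adjusted p = 0.955) and rho = -0.0714 (exact permutation p = 0.882, adjusted p = 1), and r = 0.235 without control 4 and dtg 4. A slide holds 4 hearts, too few for a correlation within it.

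The hearts differed in atrial signal, which is of interest for Abcc8. The mean of the atrial genes Myl7, Myl4 and Sln was 4.83, 2.17, 5.93 and 6.58 in controls 1 to 4 and 4.64, 2.24, 2.77 and 6.07 in dtg 1 to 4. It fell into 3 hearts at or below 2.77 and 5 hearts at or above 4.64, so no correlation over all hearts is given and neither cluster holds enough hearts for one. Abcc8 was highest in control 4, which also had the highest atrial mean, and lowest in control 2, which had the lowest. Between these ends, control 3 with an atrial mean of 5.93 read 3.29 for Abcc8, while dtg 2 with 2.24 read 3.42. In bulk tissue, fewer cells of a type and less RNA per cell cannot be told apart.

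Kcnj8 and Abcc9 are also known as pericyte genes. The mean of the pericyte genes Pdgfrb, Rgs5, Cspg4 and Notch3 was 1.99, 1.76, 1.90 and 1.43 in controls 1 to 4 and 1.75, 1.97, 1.79 and 1.54 in dtg 1 to 4. It was lowest in control 4 and dtg 4, where Rgs5 read 2.85 and 2.87 against 3.48 to 3.92 in the other hearts. Pericyte markers outside the mean were divided. Vtn was lowest in those hearts (1.88 in both, against 2.01 to 2.32), and so was Mcam (3.05 and 3.17, against 3.21 to 4.35). Higd1b was highest in those hearts (2.50 and 2.35, against 1.97 to 2.19), and so was Ndufa4l2 (2.14 and 2.31, against 1.98 to 2.12). Steap4 was lowest in dtg 4 but not low in control 4. Within the mean, Cspg4 was lowest in those hearts (-0.273 and -0.0594, against 0.392 to 0.775), while Pdgfrb and Notch3 were not. With this mean Kcnj8 had an r of 0.282 (exact permutation p = 0.487, adjusted p = 0.955), a rho of 0.357 (exact permutation p = 0.389, adjusted p = 1) and an r of 0.295 without control 4 and dtg 4. Without control 4 alone that r was 0.607, without dtg 4 alone 0.0111, and with median scaling 0.74. Abcc9 had an r of -0.283 (exact permutation p = 0.507, adjusted p = 0.955), a rho of -0.238 (exact permutation p = 0.582, adjusted p = 1) and an r of -0.668 without those hearts. Its r was -0.873 without control 4 alone and 0.133 without dtg 4 alone.

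The strongest of the 10 relations was that of Abcc8 with the pericyte mean, with an r of -0.65 (exact permutation p = 0.0791, adjusted p = 0.791) and a rho of -0.5 (exact permutation p = 0.216, adjusted p = 1). Without control 4 and dtg 4 its r was 0.0176. Without control 4 alone it was -0.155 and without dtg 4 alone -0.737, so the relation rests on control 4. Kcnj11 with the pericyte mean gave r = 0.0654 (exact permutation p = 0.875, adjusted p = 0.985) and rho = 0.0714 (exact permutation p = 0.882, adjusted p = 1), and r = -0.467 without the same hearts.

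**Figure D4:**
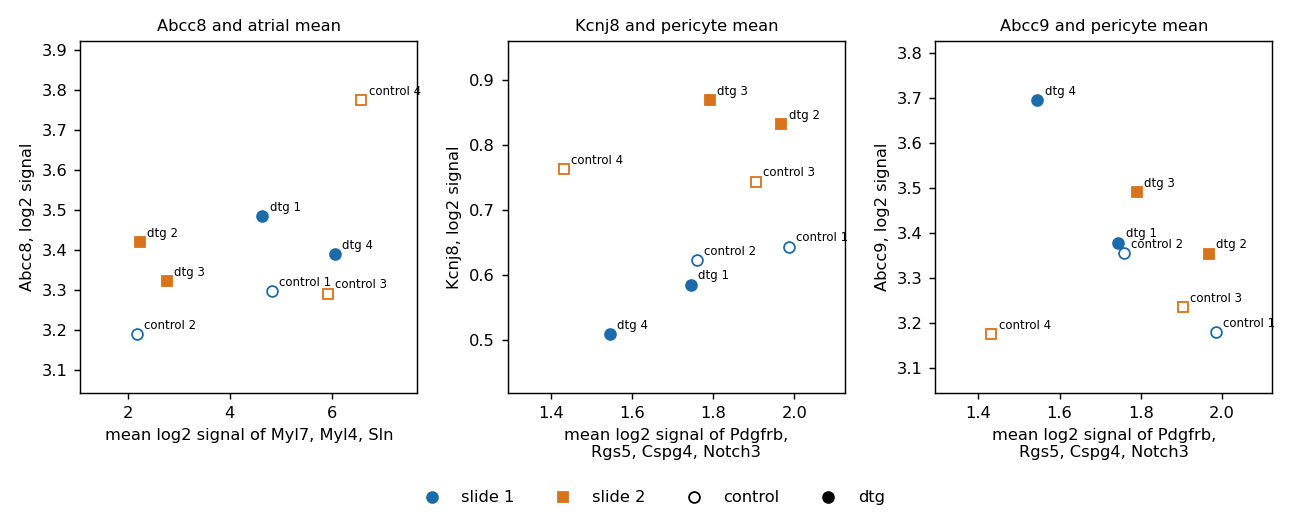
Log2 signal of Abcc8 against the mean of the atrial genes Myl7, Myl4 and Sln, and of Kcnj8 and Abcc9 against the mean of the pericyte genes Pdgfrb, Rgs5, Cspg4 and Notch3, with 1 point per heart (open: control, filled: dtg, circles: slide 1, squares: slide 2). The atrial mean left a gap between 2.77 and 4.64, Kcnj8 separated by slide, and Abcc9 reached its highest value, 3.70, in dtg 4 at a low pericyte mean.

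The labelled tissue was checked on marker genes. The 8 ventricular muscle markers were far above the array's 75th percentile, with a mean log2 signal of 7.95 to 8.04 in control and 7.96 to 8.11 in dtg hearts. The 7 atrial markers averaged 0.82 to 3.22 in control and 0.56 to 2.96 in dtg hearts, and 6 of 7 were lower in dtg by their group means, without a call. The 9 pericyte markers averaged 1.59 to 1.91 in control and 1.58 to 1.95 in dtg hearts, with 5 higher and 4 lower in dtg (1 and 8 with median scaling). Of the pancreatic markers, Iapp, Pdx1 and Gcg did not pass the filter, and Ins1 and Ins2, which did, averaged between -4.53 and -2.69.

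Among the cell types of the vascular channel, smooth muscle had 6 of 7 markers kept, 1 higher and 5 lower in dtg hearts. The median difference was -0.14, against 0.015 over all features. The mean level of the list was 1.597 to 1.76 in control and 1.38 to 1.591 in dtg hearts. The groups thus nearly met, and this was the only 1 of the 15 lists without overlap. Acta2, the smooth muscle actin, read 4.11, 3.82, 4.01 and 3.97 in controls and 3.66, 3.49, 3.55 and 3.72 in dtg hearts, a difference of -0.37 without overlap (SE 0.11, unadjusted p = 0.00843, adjusted p = 1 with limma). Over all features, 0.518% had groups without overlap and 0.747% an unadjusted p under 0.05 (limma). Myh11, the smooth muscle myosin, differed by -0.28 (SE 0.17), with overlap. These markers were lower by their means while Kcnj8 differed by 0.0057 and Abcc9 by 0.24, and the part of cell make-up in the subunit values was not tested.

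Endothelial markers averaged 1.74 to 2.02 in control and 1.60 to 1.87 in dtg hearts, with 1 of 7 higher, 6 lower and no call; Tie1 and Tek differed by -0.14 and -0.12. Nerve markers had 2 of 7 higher and 5 lower in dtg hearts, with Syn1 at 0.58 (SE 0.38) and Prph at 0.37 (SE 0.48). Both were dim: Syn1 averaged -3.48 in control and -2.90 in dtg hearts. Prph averaged -4.645 in control and -4.275 in dtg hearts and was well above background on 6 of the 8 arrays. Skeletal muscle markers had 4 of 6 kept, 1 higher and 3 lower, with Acta1 at -0.40 (SE 0.30) and Tnni2 at -0.20 (SE 0.19). In the pericyte list Notch3 differed by 0.097 and Steap4 by -0.27, and in the ventricular list Tnni3 by 0.12 and Ryr2, the calcium release channel, by 0.15. Myl7 and Myl4, the atrial light chains, differed by -1.03 and -0.83, and for both the sign turned between slides (1.72 and 1.70 within slide 1, -3.78 and -3.36 within slide 2).

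None of the genes that work with the channel passed the test. All 32 partner genes were kept, 25 were higher and 7 lower in dtg hearts by their group means, 0 passed the adjusted threshold and 0 had an unadjusted p under 0.05, with a median difference of 0.043 against 0.015 over all features. With median scaling 11 were higher and 21 lower. The energy enzymes that supply or use ATP near the channel, creatine kinases, adenylate kinases and glycolytic enzymes, counted 11 higher and 1 lower of 12, with a median of 0.051. Median scaling turned that count to 4 higher and 8 lower (median -0.029). Ckmt2, the mitochondrial creatine kinase of muscle, differed by 0.088 (SE 0.091), and Tpi1, triosephosphate isomerase, by 0.085 (SE 0.094).

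Of the 7 kinases that act on the channel or its supply, 4 were higher and 3 lower, with Prkaa2, the muscle catalytic subunit of AMP-activated kinase, at 0.20 (SE 0.21) and Prkaca, of protein kinase A, at -0.13 (SE 0.21). Of 7 trafficking and anchoring genes 5 were higher and 2 lower (1 and 6 with median scaling), with Stx1a, a syntaxin, at 0.11 (SE 0.14) and Cav1, a caveolin, at -0.14 (SE 0.15). The mitochondrial KATP genes, Ccdc51 and Abcb8, differed by 0.079 (SE 0.13) and -0.047 (SE 0.20). All 4 transcription factors were higher by their means, among them Foxo1 (0.098, SE 0.18) and Foxo3 (0.24, SE 0.32), and 2 of 4 with median scaling.

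No relative of the subunits passed the test. Of 13 other inward rectifier genes 9 were kept (not Kcnj1, Kcnj6, Kcnj9 and Kcnj16), with 3 higher and 6 lower in dtg hearts (1 and 8 with median scaling), a median of -0.11 and no call. Kcnj10, a rectifier known from glia, read -5.22, -4.92, -5.19 and -5.03 in controls and -4.78, -4.90, -4.32 and -4.72 in dtg hearts. All its dtg values lay above its control values (0.41, SE 0.15, unadjusted p = 0.0261, adjusted p = 1 with limma), and this dim probe was well above background on 7 of the 8 arrays. Groups without overlap were found for 0.518% of all features, and an unadjusted p under 0.05 for 0.747% (limma). Kcnj14 differed by -0.36 (SE 0.16), with overlap.

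The cardiac inward rectifiers Kcnj2 and Kcnj12, which set the resting potential, differed by -0.23 (SE 0.27) and 0.025 (SE 0.15). Kcnj3 and Kcnj5, which form the muscarinic potassium channel of atria, differed by -0.11 (SE 0.18) and -0.095 (SE 0.17). Of 9 other ABCC genes 6 were kept (not Abcc2, Abcc6 and Abcc12), 4 higher and 2 lower, with a median of 0.10. Abcc1, a drug and conjugate exporter, differed by 0.12 (SE 0.11), and Cftr, a chloride channel, by 0.79 (SE 0.42, adjusted p = 1 with limma), with overlap.

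The genes whose levels over the 8 hearts were most like each subunit are given as a description, with Pearson's r over 8 hearts among 14286 named genes. They were picked by r, so a pattern shared with the subunit follows from the choice. Hdac7 (0.986), Lins1 (0.971) and Snapc4 (0.955) were closest to Kcnj8, and like it they were higher on slide 2, by 0.37, 0.19 and 0.29. None of these slide differences passed (adjusted p = 0.0624, 0.301 and 0.126 with limma). Rnaseh2a (0.975), Tubb4a (0.96) and Cyb5r1 (0.941) were closest to Kcnj11. Cep112 (0.94), Oat (0.933) and Zfp455 (0.928) were closest to Abcc8, each with its highest value in control 4. Tmtc3 (0.959), Prdx3 (0.951) and Zmym2 (0.925) were closest to Abcc9, each highest in dtg 4, and differed between groups by 0.20, 0.18 and 0.13 with an adjusted p of 1 each (limma). Of the 14286 genes, an r above 0.9 was reached by 31 for Kcnj8, 29 for Kcnj11, 25 for Abcc8 and 14 for Abcc9. How many would reach it by chance over 8 hearts was not computed.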

How the data were processed

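Total RNA of 8 heart samples (100 ng each) was labelled with Cy3, per the labels. The arrays were read by Agilent Feature Extraction, version 10.7.3.1 per the submitters' processing notes. The authors deposited 1 scanner table per array with background-subtracted intensity per spot, and a log2 value table. Compared with the scanner files, the deposited log2 table was quantile normalized and centred per probe (r = 1 in each column). The medians of its columns ran -0.0154, -0.0168, 0.0323 and 0.0178 in controls 1 to 4, then 0.0051, 0.00689, -0.0322 and -0.00946 in dtg 1 to 4. Scale, centring and direction were found from the values, and no source used here names its tool. Dim probes depend most on how the background was treated.

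Control spots and 621 outlier-marked spots were dropped, replicate spots were averaged as log2 intensity, and the array's 75th percentile was subtracted. Accessions gave 26369 probes a symbol (19987 symbols, GRCm38.p6, names only). A probe was kept if well above background on at least 4 arrays (26111 probes), and the brightest probe stood for a gene in the count over all features, leaving 21427 features. Groups came from titles and genotype labels, and slides from the array headers. R 4.3.3 with limma 3.58.1 (lmFit, eBayes) gave differences, 95% intervals and Benjamini-Hochberg adjusted p at a threshold of 0.05, without covariates between groups and with group as covariate between slides. Differences of single probes came from a fit of all 26111 kept probes. The limma fit between groups was tested on simulated data with independent noise and no slide effect. Ratios and correlations used two-sided exact permutation tests. Of 14 relations planned, the 4 with the atrial mean were dropped after its clusters were seen (a gap of over 1 log2 unit and over 1 in 3 of the range).

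The members and lists were chosen with earlier results of these data known. Named are the 4 subunits, 2 genes of each list by smallest unadjusted p, the genes of both marker means, and the 3 named genes most like each subunit. Igf1r, Kcnj2, Kcnj12, Kcnj3, Kcnj5, Higd1b, Ndufa4l2, Vtn and Mcam fall outside that rule and were added with their values known. Replicate numbers did not pair the samples throughout. Same-number correlations of deviations were 0.542, -0.544, 0.153 and 0.162 for replicates 1 to 4. The best with another number were 0.408, 0.702, 0.0625 and 0.274. Alternatives were normexp with an offset of 50 on the pixel median, with and without spots darker than their background, quantile and median scaling, filters, mean of probes, the authors' values, intensity trend, array weights, slide or replicate as a block, and samples left out.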

Additional observations from a re-analysis of the deposited data

Results flagged for a closer look

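In 28 groups of 4 hearts over the probes and measures, 2 values stood apart from the other 3 of their group by Dixon's criterion, which chance gives in about 1 of 20 groups. The dimmer Kcnj11 probe (A_55_P1961477) read -3.00 in control 4, against -1.78 to -1.66 in the other controls. The dimmer Abcc8 probe (A_55_P2178207) read 3.74 in control 4, against 3.11 to 3.21 in the other controls.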

How the results depend on the processing

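No subunit difference between groups, slide difference or relation changed its side of the adjusted threshold under any alternative run. Neither did a list or a ratio where an adjusted p or a count was computed. For the ratios this was nearly fixed beforehand. At 0.0286, the smallest p of 70 assignments, 1 ratio alone cannot pass over the 6 pairs. Within a slide the smallest possible p is 0.333 (exact permutation). For the ratios with slide or replicate as a block the p was not adjusted (lowest 0.0556, Abcc9 over Kcnj8 with slide as a block, exact permutation). That is the smallest p that swaps within slides allow. With 3 samples left out the ratios have no test. Abcc9 kept a positive difference in 24 of 24 alternatives (0.115 to 0.472, 0.172 to 0.286 with a sample left out). Some of these could not move it: filters, mean of probes, intensity trend and either block left it at 0.244 by design. Abcc9 over Kcnj11 and Abcc9 over Kcnj8 kept their sign in 20 of 20 (0.104 to 0.429 and 0.0595 to 0.357). Median scaling and either block could not change those ratio differences. The ratio differences were 0.148 and 0.103 without dtg 4, and 0.128 and 0.0595 without control 4 and dtg 4. The cause of the turned signs below was not tested. Between groups, Kcnj8 turned to -0.0738 with median scaling and -0.0860 within slide 1. Kcnj11 turned to 0.0430 with normexp as planned, 0.0440 within slide 2, 0.0113 with control 4, dtg 3 and dtg 4 left out and slide as a block, and 0.0241 without control 4 and dtg 4, an alternative chosen after seeing the data. Abcc8 turned to -0.00816 with normexp without dark spots, -0.0636 with median scaling, -0.0173 with the mean of probes and -0.162 within slide 2. With a sample left out the range was -0.0511 to 0.0690 for Kcnj8, -0.109 to 0.0238 for Kcnj11 and -0.0504 to 0.145 for Abcc8.

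Between slides, median scaling turned Kcnj11 to 0.206 and Abcc9 to 0.202, and Abcc8 turned to -0.251 with normexp as planned and -0.00223 with array weights, with -0.0208 to 0.173 as a sample was left out. The 2186 features called between slides became 0 with normexp as planned (203 at an unadjusted p under 0.05 with limma), 1308 with quantile scaling, 1379 with probes above background on all arrays, 1292 with the authors' values and 4913 with array weights, and 1057 (without control 1) to 2546 (without dtg 3) with a sample left out. Normexp as planned was fitted on arrays with spots darker than their background, 12 on control 4, 4 each on dtg 4 and dtg 1, 2 on control 1 and 1 on dtg 3. Fitted background means were -1740 on control 4, -461.9 on dtg 4, -19.6 on dtg 1 and -3.27 to 11.4 elsewhere.

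Among the ratios, Abcc8 over Kcnj8 turned to -0.0184 with normexp without dark spots, -0.0230 with the mean of probes and -0.259 within slide 2, and ranged from -0.0545 to 0.116 with a sample left out. Abcc8 over Kcnj11 turned to -0.206 within slide 2 and ranged from -0.0217 to 0.188. Kcnj11 over Kcnj8 ranged from -0.153 to 0.0605, and with control 4, dtg 3 and dtg 4 left out and slide as a block it turned to 0.000599 and Abcc8 over Abcc9 to 0.0779.

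Among the correlations, quantile scaling turned Kcnj8 with Abcc8 to -0.0588 and Kcnj11 with Abcc8 to 0.0813. Normexp without dark spots turned Kcnj8 with Kcnj11 to -0.219, Kcnj8 with Abcc8 to -0.166, Kcnj11 with Abcc8 to 0.261 and Kcnj11 with the pericyte mean to -0.0231. Median scaling turned Kcnj8 with Abcc9 to 0.527, Kcnj11 with Abcc8 to 0.653, Abcc8 with Abcc9 to 0.547, and the pericyte mean with Abcc8 to 0.368 and with Abcc9 to 0.213. It also raised Kcnj8 with Abcc8 to 0.792, with Kcnj11 to 0.673 and with the pericyte mean to 0.74 (adjusted p = 0.169, 0.175 and 0.173, exact permutation), and normexp without dark spots gave -0.831 for Abcc8 with the pericyte mean (adjusted p = 0.121, exact permutation). With a sample left out the ranges were -0.401 to 0.327 for Kcnj8 with Kcnj11, -0.0835 to 0.291 for Kcnj8 with Abcc8, -0.642 to 0.271 for Kcnj8 with Abcc9, -0.110 to 0.0885 for Kcnj11 with Abcc8, -0.489 to 0.195 for Kcnj11 with Abcc9, -0.355 to 0.309 for Abcc8 with Abcc9, and with the pericyte mean -0.221 to 0.348 for Kcnj11, -0.873 to 0.133 for Abcc9, 0.0111 to 0.607 for Kcnj8 and -0.745 to -0.155 for Abcc8.

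The replicate numbers did not pair the samples throughout: replicates 1 and 3 correlated best with the same number, and replicates 2 and 4 with another. With the replicate number as a block, 276 features had an unadjusted p under 0.05 against 160 without it, and 0 passed the adjusted threshold (limma). The Abcc9 difference is by design the same, 0.244, and its SE was 0.118. The count of 160 ranged from 13 (normexp as planned) to 780 (array weights) over the alternatives.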
